A study of Homo sapiens with 8 samples.

Results

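The labelling effect of a nuclear enzyme was set against that of the same enzyme at the mitochondrial surface, gene by gene, in human cells. The effect in a compartment is the log2 ratio of labelled over control libraries, and the difference is the nuclear effect minus the mitochondrial-surface effect. A positive difference therefore marks an RNA whose capture was relatively higher with the nuclear enzyme, and a negative one an RNA relatively higher with the enzyme at the mitochondrial surface. Genes with at least 50 counts in each of the 8 libraries were taken, so that no value rests on zeros; they numbered 10259 of the 60664 genes listed and of the 23178 tested.

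All libraries came from HEK293T, an established line from human embryonic kidney, carrying APEX2, an engineered peroxidase that tags nearby molecules with biotin. In the nuclear arm APEX2 bore a nuclear localisation signal (NLS), and in the other arm it sat at the outer mitochondrial membrane (OMM). Each arm had 2 libraries from labelled cells and 2 from unlabelled control cells that expressed the same enzyme, and the series text describes recovery of biotinylated RNA on streptavidin beads. For NLS the library kit was SMARTer Stranded Total RNA, titled ribominus; for OMM it was TruSeq Stranded mRNA, which selects polyadenylated RNA, so kit and compartment cannot be told apart. The release of RNA from the beads is described with Proteinase K for NLS and TRIzol for OMM in the series text, while the sample labels name a column kit for all. The promoter that drives APEX2, and whether the line is 1 clone, were not given by the labels. Nor do the labels tell of separate cultures within a group, so a p-value here reflects the spread between libraries alone, which may be technical. In bulk libraries, fewer cells holding an RNA and less of it in each cell cannot be told apart.

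As background, peroxidase labelling captures RNA that lies close to the enzyme while the label is made. Some long non-coding RNAs stay in the nucleus, whereas most mature mRNAs are exported. Messages for secreted and membrane proteins are translated on the endoplasmic reticulum (ER), which touches mitochondria at contact sites, and some messages for mitochondrial proteins are translated next to the outer membrane. RNAs made from mitochondrial DNA stay in the matrix, behind the inner membrane.

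Many of the results below concern messages whose proteins enter the ER or the mitochondrion, and many of both kinds of protein carry their targeting sequence at or near the start. The first 75 coding bases of 5 genes are printed to show what such a start looks like beside that of a cytosolic protein. The genes were picked after their values were seen. Capitals mark the codons with T in the middle position, which encode the hydrophobic residues Phe, Leu, Ile, Met and Val. The bases were read along the spliced representative transcript of GENCODE 29, GRCh38.
KDELR1: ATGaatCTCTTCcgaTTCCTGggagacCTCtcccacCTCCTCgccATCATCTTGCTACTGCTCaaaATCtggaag
SPCS3: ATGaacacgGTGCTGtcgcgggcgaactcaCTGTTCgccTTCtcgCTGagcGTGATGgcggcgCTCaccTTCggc
CANX: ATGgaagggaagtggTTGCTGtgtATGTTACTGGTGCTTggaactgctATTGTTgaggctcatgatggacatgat
IARS2: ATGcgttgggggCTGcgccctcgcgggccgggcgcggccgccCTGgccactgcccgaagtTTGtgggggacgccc
ACTB: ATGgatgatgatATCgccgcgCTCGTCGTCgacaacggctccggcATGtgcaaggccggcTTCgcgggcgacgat
KDELR1 (gene at chr19:48382570-48391553, minus strand) encodes a multi-span receptor that returns proteins from the Golgi to the ER, and 15 of its first 25 codons are in capitals. SPCS3 (chr4:176319964-176332245, plus strand) encodes a subunit of signal peptidase, with 11 such codons. CANX (chr5:179678628-179730925, plus strand) encodes the ER chaperone calnexin, whose signal peptide gives an unbroken stretch of capitals among its 10 codons. IARS2 (chr1:220094102-220148041, plus strand) encodes a mitochondrial matrix enzyme, with 4 codons in capitals. ACTB (chr7:5527147-5563784, minus strand) encodes the cytoplasmic protein beta-actin and has 7, more than IARS2, so the capitals do not set this matrix enzyme apart.

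Total counts ran from 8039176 to 21096586 in the NLS libraries and from 34705126 to 52421161 in the OMM libraries, and the genes described here held 90.7% to 98.0% of them. The replicates of the OMM groups lay further apart than those of the NLS groups. Over these genes, 17.4% (controls) and 20.4% (labelled) were at least 2-fold apart between the OMM replicates, against 0.526% and 0.00975% at NLS. The median biological coefficient of variation was 0.357 in the OMM fit and 0.0989 in the NLS fit. Markers of the HEK line summed to 1019 to 1347 CPM (counts scaled to library size) in every library, but the make-up of the sum differed. HOXD10 was its top gene in the labelled NLS libraries, at 433 and 534 CPM, and VIM in the others. Of the 11 HEK markers with at least 50 counts in each library, 9 fell and 1 rose at NLS. The 24 defining markers of other cell types summed to 10.4 to 37.8 CPM, with none of the 24 reaching 50 counts in all libraries. RNA from mitochondrial DNA made up 3.19% and 4.49% of counts in the NLS controls and 0.812% and 0.850% in the labelled NLS libraries. At OMM its share was 4.29% and 7.19% in controls and 1.17% and 1.65% with label, so it was lower with label at both sites.

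The difference was called (edgeR, adjusted p under 0.05) for 1712 of the 10259 genes, or 16.7%, against 8.15% of all 23178 genes tested. It was higher, on the NLS side, for 207 genes, or 2.02%, against 1.51% of all genes tested. It was lower, on the OMM side, for 1505 genes, or 14.7%, against 6.64%. These calls took 1 spread per gene over both compartments, and so can understate the larger spread at OMM. The genes described are the more abundant ones, and the part of abundance in these shares was not tested. Their median difference was -0.49 on the log2 scale, against 0.13 over all genes tested, so a list is read below against -0.49 rather than against 0. Genes just outside the count rule, with a lowest count of 40 to 49, had a median of -0.26 (217 genes, 2 higher and 3 lower), and those just inside, from 50 to 60, had -0.28 (212 genes, 1 higher and 3 lower).

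Fitted apart, the NLS libraries gave 1880 genes that rose with label and 5185 that fell, or 18.3% and 50.5%, against 28.8% and 28.5% of the genes tested there. The OMM libraries gave 20 that rose and 8 that fell, or 0.195% and 0.0780%, against 0.139% and 0.0554%. Most called differences thus paired a called NLS effect with an OMM effect that did not pass on its own: 1446 of the 1505 lower genes fell at NLS with no OMM call, and 196 of the 207 higher genes rose at NLS with no OMM call. By sign alone, 195 of the 207 higher genes had an NLS effect above 0 and an OMM effect below 0, with medians of 1.21 and -0.88. Of the 1505 lower genes, 1149 had an NLS effect below 0 and an OMM effect above 0. Another 342 had both below 0 and 14 both above 0, and the lower genes had median effects of -1.28 and 0.47. A called difference in itself favours opposite signs at the 2 sites. Among the 8547 genes not called, 1506 were above 0 at NLS and below 0 at OMM, and 2457 the reverse. Signs at NLS also depend on scaling, since library size alone gave 3782 rising and 2966 falling genes there. Across the 10259 genes the effects at the 2 sites had a Pearson correlation of -0.026 and a Spearman correlation of -0.0087. That correlation is a description over genes that share the same 8 libraries.

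**Figure D1:**
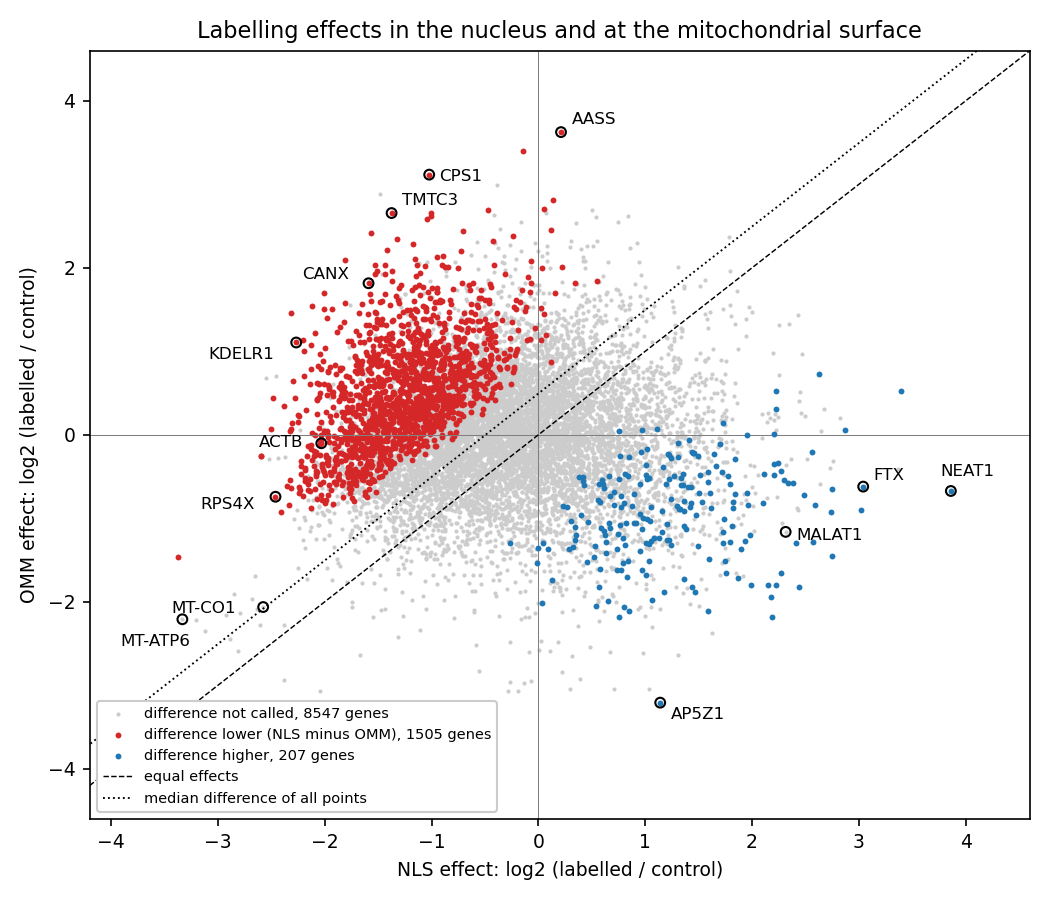
Each point is 1 of the 10259 genes, with its NLS effect on the x axis and its OMM effect on the y axis (both log2 labelled over control); red and blue mark the 1505 lower and 207 higher called differences, the dashed line equal effects and the dotted line the median difference of -0.49. The red points lie mostly at the upper left and the blue ones at the lower right, while MT-CO1 and MT-ATP6 are low on both axes.

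The number of calls rested on the NLS libraries. Without NLS control 1 no gene was called in either direction (2398 lower and 452 higher at an unadjusted edgeR p under 0.05), without NLS control 3 there were 19 lower and 1 higher, without labelled NLS library 1 there were 459 and 27, and without labelled NLS library 3 there were 328 and 12. Leaving out 1 OMM library gave 1617 to 2054 lower and 287 to 681 higher calls, and the split also moved with scaling. With library size alone it was 575 lower and 291 higher, with scaling on protein-coding genes 790 and 263, with the 50-count rule applied before the fit 1158 and 816, and with DESeq2 1939 and 1329. Each of the 1712 genes kept the sign of its difference under every setting named here and under the other alternatives run.

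**Figure D2:**
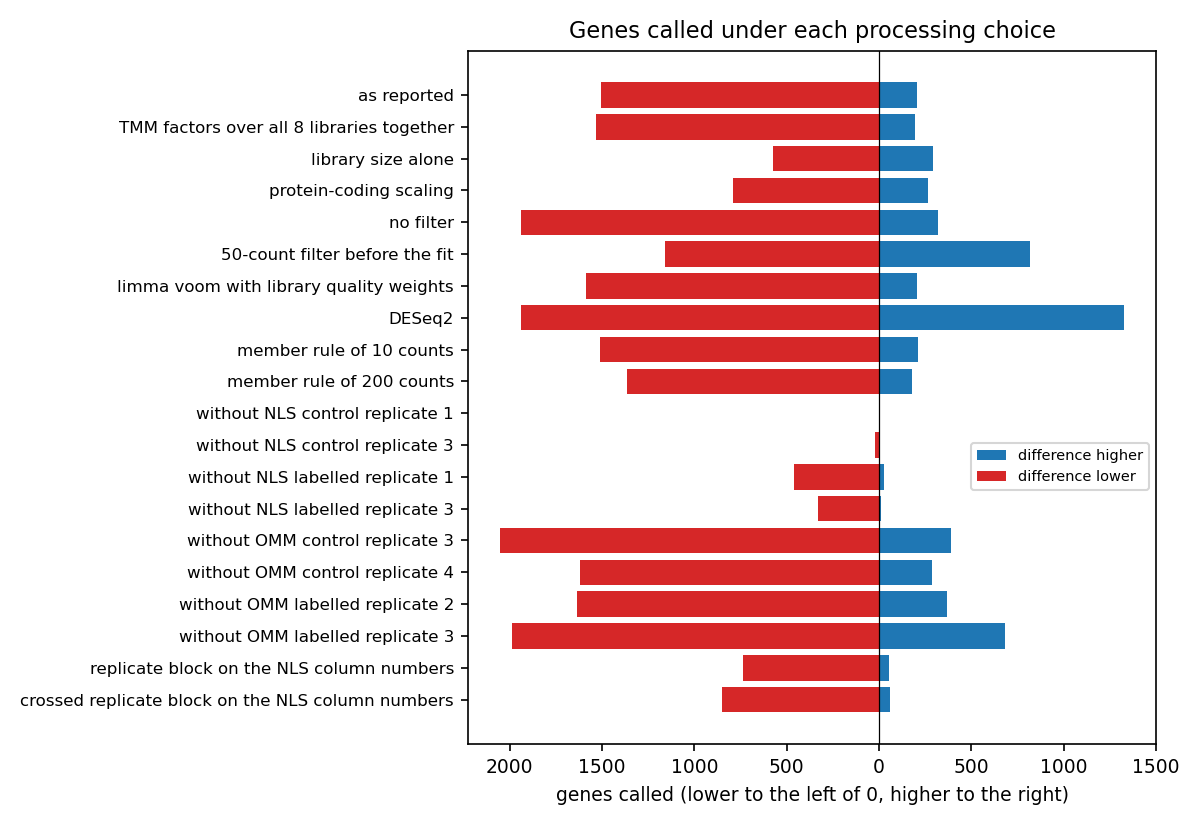
Bars give the number of the genes called lower (red, left of 0) and higher (blue, right of 0) under each processing choice on the y axis. The bars vanish without NLS control 1 and are shortest after it without NLS control 3, and the higher bar is longest with DESeq2 at 1329 genes.

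Gene lists are given by counts called and by the median difference. Beside those counts stand 14.7% lower and 2.02% higher over all genes described. In parentheses follow the lowest and highest list median over the 16 ways to combine 1 labelled with 1 control library in each compartment. Nuclear RNAs had the highest list median, and the lowest belonged to 11 markers of the HEK line, followed by ER folding proteins and the cytoskeleton. With library size alone, the median over all genes described rose by 0.43 to -0.06, and with scaling on protein-coding genes it rose by 0.29 to -0.20. The medians of complex I, splicing and histone lists changed sign with library size alone, with DESeq2 and with the 50-count rule before the fit, while the other list medians that are given a direction here did not.

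**Figure D3:**
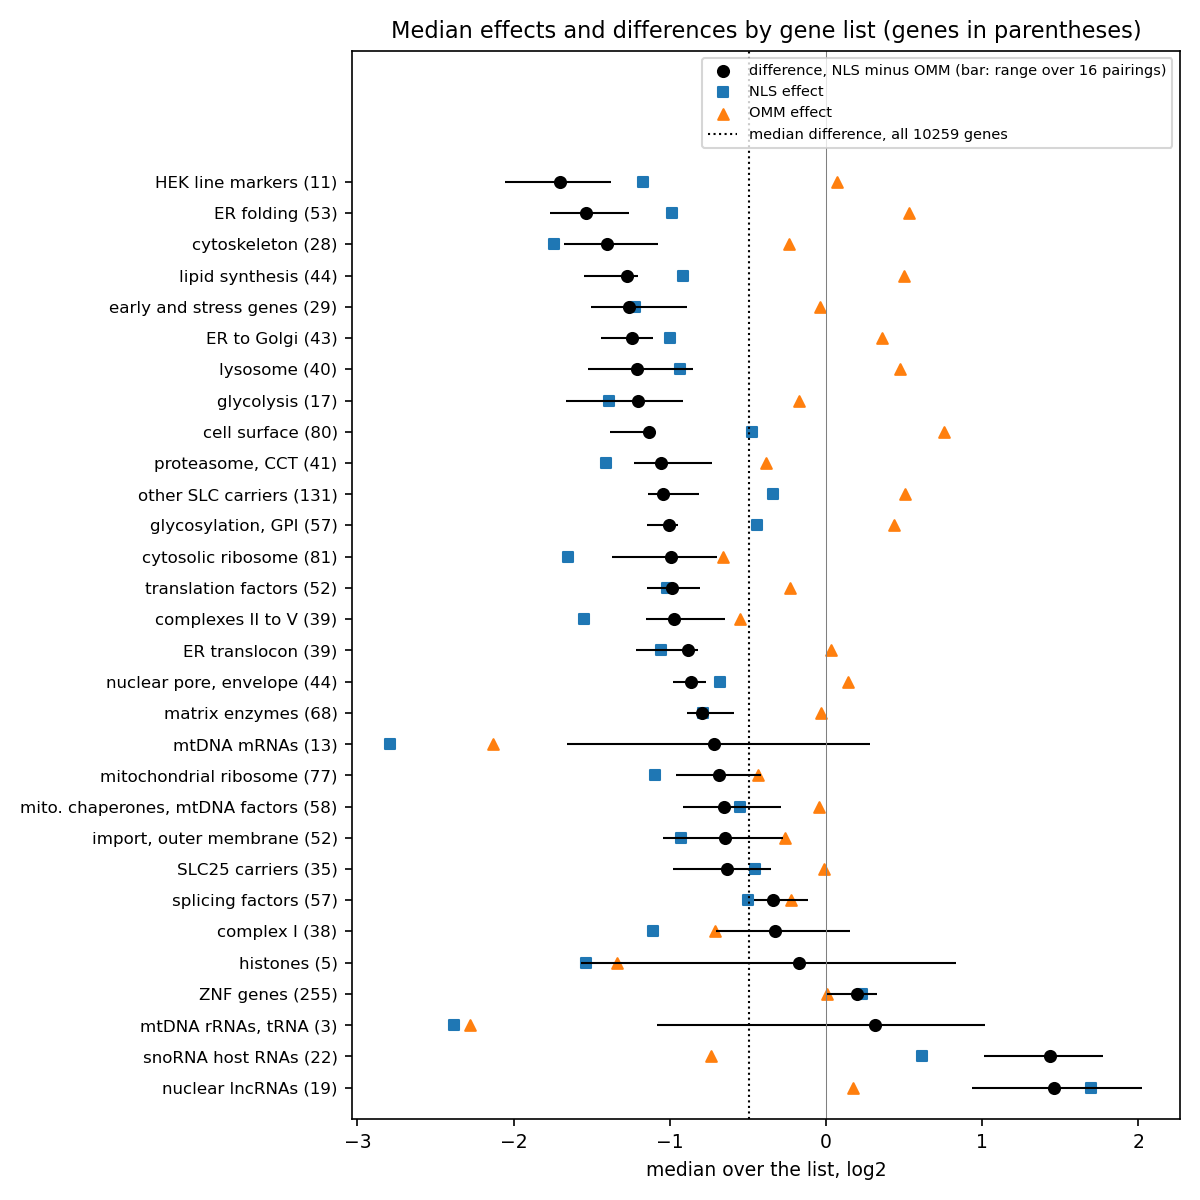
For each gene list on the y axis (number of genes in parentheses), the x axis gives the median log2 difference (black, with its range over 16 library pairings), the median NLS effect (blue squares) and the median OMM effect (orange triangles). Nuclear long non-coding RNAs and snoRNA hosts lie farthest right, at 1.46 and 1.43, and the dotted line marks the median of -0.49 over all genes described.

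Nuclear-retained long non-coding RNAs had the highest list median, 1.46 (0.94 to 2.03), which is 1.95 above that of all genes described. Of 19 such RNAs, 5 had a higher difference and none a lower one, and 13 rose at NLS. At OMM 11 of the 19 had an effect above 0, with a median of 0.17, and none was called there. NEAT1, the scaffold of paraspeckles, had the highest difference of any gene. It measured 86.3 and 99.5 CPM in the NLS controls against 1278 and 1443 CPM with label, and 50.3 and 20.04 CPM in the OMM controls against 12.5 and 31.8 CPM with label. Labelled NLS libraries were above every control there, while the OMM groups overlapped. Its difference was 4.54 (SE 0.78, adjusted p = 0.022), from an NLS effect of 3.86 (SE 0.13, adjusted p = 1.46e-05) and an OMM effect of -0.67 (SE 0.67, adjusted p = 0.85). FTX, a non-coding RNA from the X-inactivation centre, measured 27.3 and 33.9 CPM in the NLS controls against 248 and 259.5 CPM with label, and 7.65 and 7.09 CPM in the OMM controls against 4.56 and 5.07 CPM with label. Its labelled libraries were high at NLS and low at OMM, with no overlap in either compartment, and the difference was 3.67 (SE 0.26, adjusted p = 0.0029). Of the exonic bases of FTX, 45.8% are shared with another gene, so its counts are uncertain.

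MALAT1, an abundant RNA of nuclear speckles, measured 1123 and 1177 CPM in the NLS controls against 5258 and 6268 CPM with label, and 55.98 and 13.5 CPM in the OMM controls against 16.9 and 14.3 CPM with label. It was high in both labelled NLS libraries, but its OMM groups overlapped. Its difference of 3.48 (SE 0.81) had an adjusted p of 0.051 (edgeR), just outside the threshold. Non-coding host RNAs of snoRNAs, the small RNAs that guide modification of ribosomal RNA, had a median of 1.43 (1.01 to 1.78). Among 22 of them, 6 were higher and 1 lower. SNHG17 was higher at 2.56 (SE 0.30, adjusted p = 0.0075) and EPB41L4A-AS1 at 3.71 (SE 0.71, adjusted p = 0.03), although 49.6% of the exonic bases of the latter overlap another gene. SNHG16 went the other way, at -1.22 (SE 0.19, adjusted p = 0.016), with 33.4% overlap.

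Other genes at the high end included messages as well as non-coding RNAs. AP5Z1, a subunit of the AP-5 adaptor complex, measured 18.6 and 21.9 CPM in the NLS controls against 44.6 and 45.5 CPM with label, and 18.04 and 38.1 CPM in the OMM controls against 3.94 and 2.15 CPM with label. Its effect was 1.14 (SE 0.15, adjusted p = 4.30e-04) at NLS, where it passed the test, and -3.21 (SE 0.85, adjusted p = 0.21) at OMM, where it did not. ZNF133, a zinc-finger gene, measured 5.52 and 7.74 CPM in the NLS controls against 35.6 and 36.9 CPM with label, and 24.05 and 16.7 CPM in the OMM controls against 7.67 and 3.94 CPM with label, and its groups did not overlap in either compartment. The differences were 4.35 (SE 0.70, adjusted p = 0.018) for AP5Z1 and 4.26 (SE 0.71, adjusted p = 0.018) for ZNF133. LINC00894, a non-coding RNA, measured 9.32 and 7.96 CPM in the NLS controls against 58.8 and 58.8 CPM with label, and 5.04 and 3.21 CPM in the OMM controls against 1.51 and 1.51 CPM with label. It was high only in the labelled NLS libraries, and its difference was 4.21 (SE 0.57, adjusted p = 0.01). The homeobox gene HOXA4 had 4.37, but 47.3% of its exonic bases overlap ENSG00000273433, a non-coding gene without a symbol that had 3.95 and lies wholly within such overlap. ANKMY1 had 4.02, PHYKPL, a phospho-lyase gene, 3.85, and RAB30-DT, a divergent transcript of RAB30, 3.93. The pseudogenes CROCCP2, SMPD4BP and ENSG00000272578 had 4.13, 3.79 and 3.93, and reads of pseudogenes may come from near-identical copies.

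**Figure D4:**
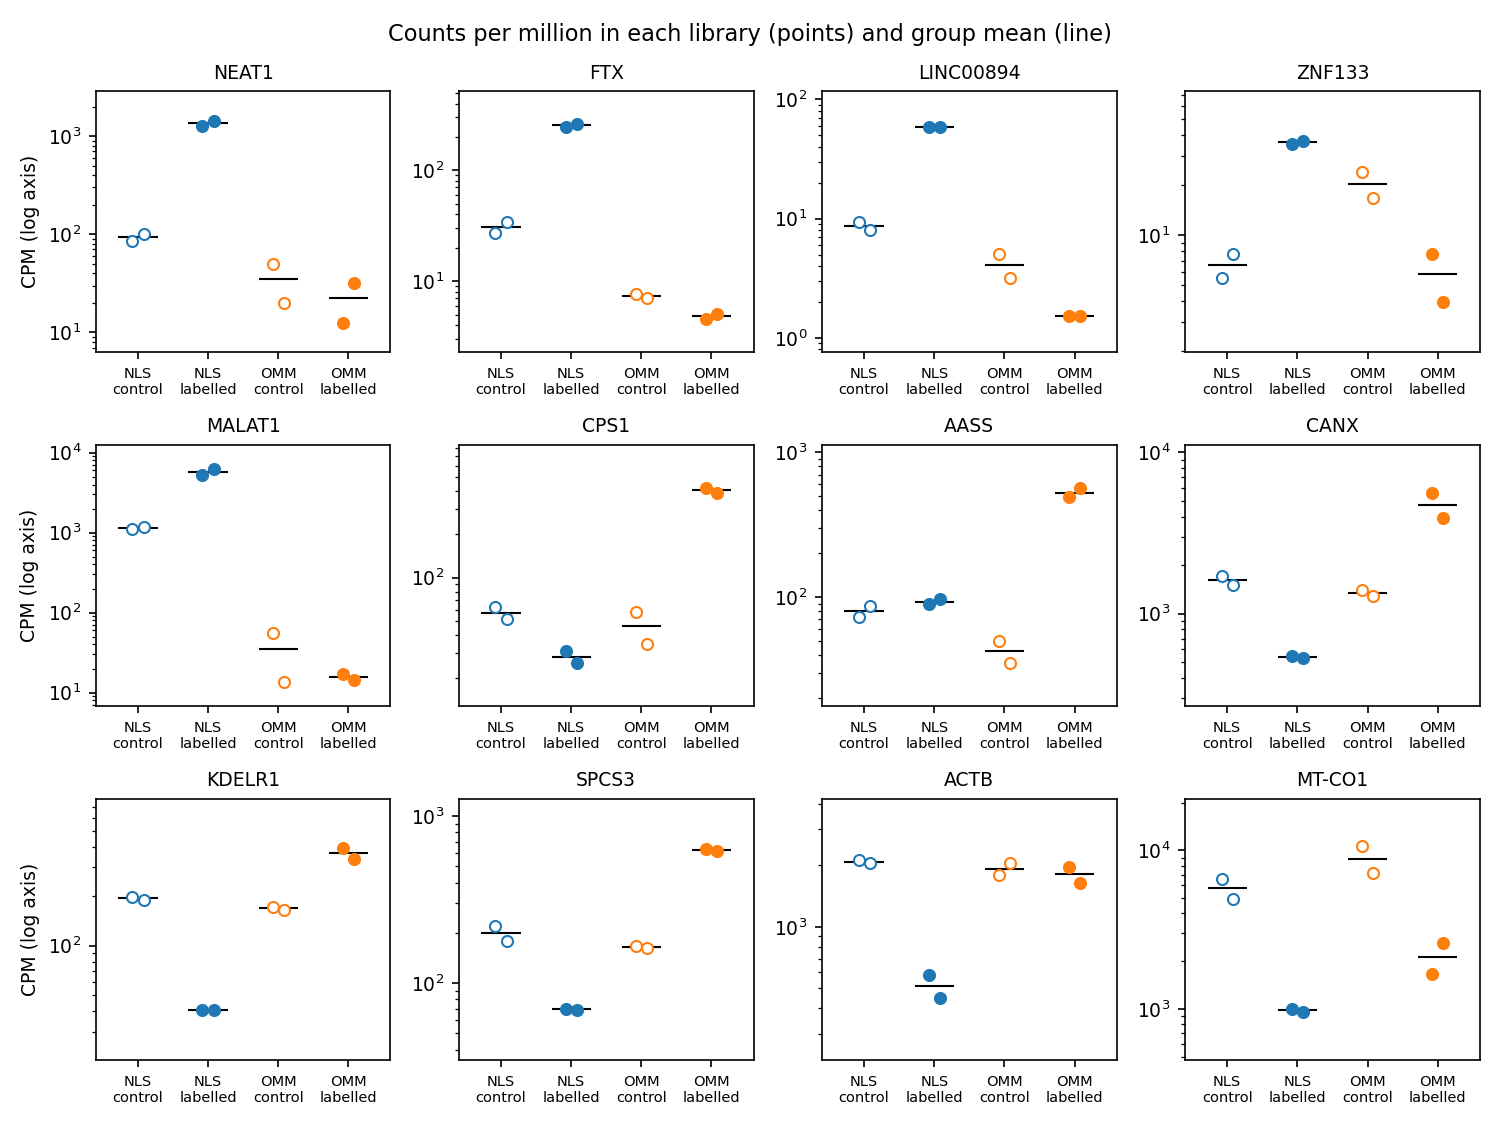
CPM (y axis, log scale) of 12 genes in each of the 8 libraries, with open points for controls, filled points for labelled libraries, blue for NLS, orange for OMM and a line at each group mean (n = 2). NEAT1, FTX, LINC00894 and ZNF133 are high with label at NLS, CPS1, AASS, CANX, KDELR1 and SPCS3 are high with label at OMM, and MT-CO1 is low with label at both.

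By gene type, long non-coding genes had a median difference of 0.46 (284 genes, 24 higher and 10 lower, or 8.45% and 3.52%). Pseudogenes were much alike, at 0.44 (92 genes, 10 higher and 3 lower, or 10.9% and 3.26%). Protein-coding genes had -0.52 (9778 genes, 170 higher and 1485 lower, or 1.74% and 15.2%). Over all genes described the shares were 2.02% and 14.7%. Among protein-coding lists, ZNF-named zinc-finger genes, many of which encode transcription repressors, had a median above 0. It was 0.20 (0.005 to 0.33) over 255 genes, with 8 higher and 8 lower, and 93 rose and 48 fell at NLS. ZNF226 was higher at 3.26 (SE 0.62, adjusted p = 0.027), whereas ZNF800 and ZNF770 were lower at -2.15 and -2.22. ZNF770 shares 31.9% of its exonic bases with another gene. Splicing factors were mixed, with 6 higher and 12 lower of 57. The kinases CLK1 and CLK3, which phosphorylate SR splicing proteins, were higher at 2.57 (SE 0.44, adjusted p = 0.022) and 2.39 (SE 0.51, adjusted p = 0.041). SRRM1, a splicing coactivator, and HNRNPUL1, an hnRNP-like protein, were lower at -1.52 and -1.47.

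At the low end stood messages for mitochondrial matrix enzymes and for proteins of the secretory route. CPS1, which opens the urea cycle, had the lowest called difference. It measured 62.5 and 51.3 CPM in the NLS controls against 30.8 and 25.6 CPM with label, and 57.97 and 34.9 CPM in the OMM controls against 420.0 and 389 CPM with label. Labelled libraries were below their controls at NLS and far above them at OMM, without overlap in either compartment. Its difference was -4.14 (SE 0.38, adjusted p = 0.0044), from -1.02 (SE 0.16, adjusted p = 9.98e-04) at NLS and 3.12 (SE 0.30, adjusted p = 0.022) at OMM. AASS, which starts lysine breakdown in the matrix, measured 72.8 and 86.7 CPM in the NLS controls against 89.5 and 96.6 CPM with label, and 49.4 and 35.3 CPM in the OMM controls against 489 and 561 CPM with label. The NLS groups were close and did not pass the test, with an effect of 0.21 (SE 0.12, adjusted p = 0.17). Its difference of -3.41 (SE 0.28, adjusted p = 0.0037) lay almost wholly in the OMM effect of 3.63 (SE 0.26, adjusted p = 0.01). IARS2, the mitochondrial isoleucyl-tRNA synthetase, measured 384 and 403 CPM in the NLS controls against 95.7 and 102 CPM with label, and 254 and 326 CPM in the OMM controls against 939 and 950.0 CPM with label. It fell at NLS and rose at OMM, and the difference was -3.70 (SE 0.21, adjusted p = 0.0024). The leucyl enzyme LARS2 had -2.23 (SE 0.26, adjusted p = 0.0075).

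Most nuclear-encoded mitochondrial lists lay near the median of all genes described. Over the 7 lists joined, a grouping made after the values were seen, 3 of 366 genes were higher and 60 lower. These are 0.820% and 16.4%, against 2.02% and 14.7% of all genes described, so the lower share was near that of all. The median effects were -0.95 at NLS and -0.32 at OMM. Matrix enzymes had a median of -0.80 (-0.89 to -0.59) with 16 of 68 lower, and chaperones, proteases and mtDNA expression factors -0.65 (-0.91 to -0.29) with 11 of 58. Import and outer-membrane proteins had -0.64 (-1.05 to -0.28), with 12 of 52 lower and 1 higher. TOMM20, an outer-membrane import receptor, was lower at -2.32 (SE 0.17, adjusted p = 0.0031) and MFN1, which fuses mitochondria, at -1.95 (SE 0.30, adjusted p = 0.015), while PAM16, an import motor subunit, was higher at 2.87 (SE 0.50, adjusted p = 0.022). The outer-membrane channel VDAC1 had -1.73 and the matrix chaperonin HSPD1 -1.56. Both had OMM effects below 0, at -0.17 and -0.25, neither of which passed.

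Respiratory chain and mitoribosome messages had median effects below 0 in both compartments. The medians at NLS were -1.11 for complex I, -1.55 for complexes II to V and -1.10 for the mitoribosome, against -0.71, -0.55 and -0.43 at OMM, where no member of these lists fell by the test. Complexes II to V had a median difference of -0.98 (-1.15 to -0.65), 9 of 39 were lower, and all 39 fell at NLS. ATP5F1B, the beta subunit of ATP synthase, had -1.81 (SE 0.29, adjusted p = 0.017) and COX5A, of cytochrome oxidase, -1.69 (SE 0.32, adjusted p = 0.03). Complex I had -0.33 (-0.70 to 0.15) with 2 of 38 lower and 1 higher, and this median was 0.10 with library size alone. NDUFA5 and NDUFB11 were lower at -1.38 and -1.75, the latter with 44.9% exonic overlap, and NDUFA11 was higher at 1.04. Mitoribosomal proteins had -0.68 (-0.96 to -0.41), with 7 of 77 lower, among them MRPS10 at -1.89 and MRPS35 at -1.81, and 1 higher, MRPL27 at 1.35. SLC25 carriers of the inner membrane had -0.63 (-0.98 to -0.35) with 3 of 35 lower, including SLC25A5 at -1.91 and SLC25A30 at -1.83. The lower shares of complex I (5.26%), the mitoribosome (9.09%) and SLC25 carriers (8.57%) lay below the 14.7% of all genes described.

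RNAs made from mitochondrial DNA were low with label at both sites, with median mRNA effects of -2.79 at NLS and -2.13 at OMM. MT-CO1, a cytochrome oxidase subunit, measured 6614 and 4960.0 CPM in the NLS controls against 1003 and 951 CPM with label, and 10579 and 7145 CPM in the OMM controls against 1653 and 2606 CPM with label. Labelled libraries were below their controls in both compartments, with no overlap. It fell at NLS by 2.58 and at OMM by 2.06 on the log2 scale, and its difference was -0.51 (SE 0.39, adjusted p = 0.56). All 13 mitochondrial mRNAs fell at NLS and 5 fell at OMM, and the median difference was -0.72 (-1.66 to 0.28). MT-ND3 alone was called, at -1.91 (SE 0.43, adjusted p = 0.047), a difference larger in size than its OMM effect of -1.46. MT-ATP6 and MT-ND1 had -1.12 (SE 0.49, adjusted p = 0.24) and -0.66 (SE 0.50, adjusted p = 0.55). In the 3 measured rRNAs and tRNA no difference was called. Of the 8 genes that fell at OMM, 7 come from mitochondrial DNA, and RPL36, a ribosomal protein gene named after its values were seen, is the other.

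Most messages for proteins that enter the secretory route had effects below 0 at NLS and above 0 at OMM. Over 8 such lists joined, again grouped after the values were seen, 305 of 487 genes fell and 56 rose at NLS. There 117 had an effect above 0, and at OMM 381 had an effect above 0 and 11 rose. Over all 10259 genes described, 5185 fell and 1880 rose at NLS. Of these 10259, 3334 had an NLS effect above 0 and 5231 an OMM effect above 0. Effects below 0 at NLS were thus common throughout under this scaling, whereas library size alone gave 3782 rising and 2966 falling genes there. Of the 487 secretory genes, the fit reported here gave a lower difference in 163 and a higher one in 2. These are 33.5% and 0.411%, against 14.7% and 2.02% of all genes described. The median effects were -0.70 at NLS and 0.48 at OMM, against -0.41 and 0.016 over all genes described. In 151 of the 163 lower genes the OMM effect was above 0. With library size alone, lower calls were 17 of 53 ER folding, 9 of 39 translocon and 7 of 57 glycosylation genes. They were 10 of 43 for ER to Golgi transport, 12 of 44 for lipid synthesis and 11 of 80 for the cell surface. Solute carriers outside SLC25 had 14 of 131 and the lysosome 10 of 40, against 575 of all 10259 genes described. CANX measured 1714 and 1511 CPM in the NLS controls against 545 and 534 CPM with label, and 1406 and 1284 CPM in the OMM controls against 5577 and 3934 CPM with label. It was low with label at NLS and high with label at OMM, and the groups did not overlap. CANX fell at NLS by 1.59 and rose at OMM by 1.82, with a difference of -3.40 (SE 0.25, adjusted p = 0.0034). KDELR1 measured 199 and 189 CPM in the NLS controls against 40.7 and 40.5 CPM with label, and 171 and 165 CPM in the OMM controls against 391 and 338 CPM with label. The same order held without overlap, but its OMM effect of 1.11 (SE 0.21, adjusted p = 0.11) did not pass alone, and the difference was -3.37 (SE 0.18, adjusted p = 0.0024). SPCS3 measured 221 and 179 CPM in the NLS controls against 70.1 and 69.4 CPM with label, and 166 and 163 CPM in the OMM controls against 636 and 615 CPM with label, with a difference of -3.45 (SE 0.19, adjusted p = 0.0024). All 3 have the hydrophobic coding starts printed above.

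ER chaperones, isomerases and degradation factors had a median difference of -1.54 (-1.77 to -1.26), or -1.04 relative to all genes described, and 31 of 53 were lower. CALU, an ER calcium binder, had -3.21 (SE 0.20, adjusted p = 0.0024), the chaperone HSPA5 -2.83 (SE 0.33, adjusted p = 0.0075) and the calcium-binding chaperone CALR -2.30 (SE 0.38, adjusted p = 0.019), while UGGT2, a folding sensor, was the 1 higher gene at 1.44 (SE 0.28, adjusted p = 0.028). Translocon, signal recognition and signal peptidase genes had -0.88 (-1.22 to -0.82) with 14 of 39 lower, including TRAM1, a translocon partner, at -3.18. Transport between ER and Golgi had -1.24 (-1.44 to -1.10) with 21 of 43 lower, including the cargo receptor TMED10 at -3.31. Enzymes of lipid synthesis had -1.27 (-1.55 to -1.20) with 20 of 44 lower. CYP51A1, a sterol demethylase, and CERS6, a ceramide synthase, were lowest at -3.38 and -3.26, but 85.97% and 41.4% of their exonic bases overlap another gene.

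Glycosylation and GPI anchor genes had a median of -1.003 (-1.14 to -0.95), with 15 of 57 lower and 1 higher. TMTC3, an O-mannosyltransferase of the ER membrane, measured 146 and 135 CPM in the NLS controls against 49.1 and 60.1 CPM with label, and 33.6 and 33.8 CPM in the OMM controls against 197 and 230.1 CPM with label, and its groups did not overlap in either compartment. It had a difference of -4.02 (SE 0.24, adjusted p = 0.0024). PIGK, which attaches GPI anchors, had -3.90 (SE 0.30, adjusted p = 0.0034), and PIGG, a GPI ethanolamine phosphate transferase, was higher at 1.41 (SE 0.32, adjusted p = 0.045). Cell-surface proteins had -1.13 (-1.38 to -1.13) with 19 of 80 lower, among them the glypican GPC4 at -3.99 and the integrin ITGA6 at -3.08. Solute carriers outside SLC25 had -1.04 (-1.14 to -0.81) with 30 of 131 lower, led by the zinc transporters SLC30A4 and SLC39A10 at -3.62 and -3.47. Lysosomal genes had -1.21 (-1.53 to -0.85) with 13 of 40 lower, such as the acid lipase LIPA at -3.67. In no list, PERP, a plasma membrane protein, had -3.77, ENPP4 -3.66, the channel PANX1 -3.66, CREG1 -3.63 and the cytokine co-receptor IL6ST -3.63.

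Messages for cytosolic proteins also had lower differences, but with OMM effects mostly below 0. Over 5 cytosolic lists joined after the values were seen, 106 of 219 genes were lower and none higher. The lower share was 48.4%, against 14.7% of all genes described, and the median effects were -1.48 at NLS and -0.43 at OMM. These calls depended on scaling. With library size alone, 12 of 81 ribosomal proteins, 12 of 52 translation factors and 3 of 17 glycolytic enzymes were lower. So were 2 of 41 proteasome and CCT subunits and 6 of 28 cytoskeletal genes, against 575 of all 10259. There 2 ribosomal proteins and 1 translation factor were higher. The OMM effect was above 0 in 26 of the 106, against 151 of 163 in the secretory lists. A call of a lower difference in itself favours genes with a high OMM effect. Over all members of the lists, called or not, the OMM effect was above 0 in 34 of 219, against 381 of 487. No test of that contrast between lists was made. ACTB measured 2120.5 and 2044 CPM in the NLS controls against 579 and 447 CPM with label, and 1798 and 2056 CPM in the OMM controls against 1972 and 1637 CPM with label. Its labelled libraries were low at NLS, and the OMM groups overlapped. The difference was -1.93 (SE 0.23, adjusted p = 0.0082), from an NLS effect of -2.03 (SE 0.14, adjusted p = 2.46e-05) and an OMM effect of -0.10 (SE 0.18, adjusted p = 0.96). RPS4X, of the small ribosomal subunit, measured 2601 and 2933 CPM in the NLS controls against 563 and 449.6 CPM with label, and 3823 and 3601 CPM in the OMM controls against 2434 and 2025 CPM with label. It was low with label at both sites, more so at NLS, and the difference was -1.72 (SE 0.22, adjusted p = 0.0094).

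Cytosolic ribosomal proteins had a median difference of -0.99 (-1.37 to -0.70), 39 of 81 were lower, 78 fell at NLS, and none had an OMM effect above 0. The stalk proteins RPLP0 and RPLP2 had -1.90 and -1.85. Translation factors had -0.99 (-1.15 to -0.81) with 23 of 52 lower, including the poly(A)-binding protein PABPC1 at -2.29, EIF4G2 at -2.28 and the elongation factor EEF1A1 at -1.68. Glycolytic enzymes had -1.21 (-1.67 to -0.92) with 11 of 17 lower, among them LDHA at -1.78, GAPDH at -1.57 and ALDOA at -1.69, although 55.6% of exonic ALDOA bases overlap another gene. Proteasome and CCT chaperonin subunits had -1.05 (-1.23 to -0.73) with 17 of 41 lower, such as TCP1 at -2.03 and PSMD12 at -1.68. Actins, tubulins and their regulators had -1.40 (-1.68 to -1.07) with 16 of 28 lower, led by TUBA1A at -2.41 and TUBB at -2.05. Many of these genes have processed pseudogenes, and the counting could split their reads.

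Nuclear pore and envelope genes had a median of -0.87 (-0.98 to -0.77) with 16 of 44 lower. The lamin B receptor LBR and the pore membrane protein NDC1, both of which span the nuclear membrane, had -2.43 (SE 0.19, adjusted p = 0.0034) and -2.23 (SE 0.31, adjusted p = 0.012). Early-response and stress genes had -1.26 (-1.51 to -0.89) with 10 of 29 lower, among them the chaperone HSPH1 at -2.13 and the cystine carrier SLC7A11 at -2.11. In 5 measured replication-dependent histone genes, whose messages typically lack a poly(A) tail, H2BC12 was lower at -1.60, and the list median changed sign with library size alone. The 11 measured HEK line markers had -1.70 (-2.05 to -1.38), and 5 were lower, including the neurofilament-like INA at -2.73 and the cadherin CDH2 at -2.22, and HOXD10 was higher at 2.13.

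Each of the 20 genes that rose at OMM also had a called lower difference, which a high OMM effect in itself favours. The number that rose at OMM moved with processing, to 48 with library size alone, 314 without a filter and 833 with DESeq2. Of the 20, 18 fell at NLS, against 50.5% of all genes described. The exceptions were AASS and PDPR, a regulatory subunit of pyruvate dehydrogenase phosphatase. PDPR and the genes in the next sentences were named after their values were seen. PDPR measured 76.1 and 70.8 CPM in the NLS controls against 78.00 and 75.4 CPM with label, and 47.99 and 43.2 CPM in the OMM controls against 321 and 275 CPM with label. The labelled OMM libraries were far above the other 6, and the NLS effect was 0.05. LMAN1, an ER cargo receptor, rose at OMM by 2.14 and fell at NLS by 0.89, and SCD, a fatty acid desaturase of the ER, rose by 1.36 and fell by 1.82. ALDH18A1, of mitochondrial proline synthesis, rose by 1.92 and fell by 1.44. In 2 genes, ZNF638 and MAN2A1, a Golgi mannosidase, the difference was lower although the RNA rose at NLS. ZNF638 had an NLS effect of 0.34 and an OMM effect of 1.82, with a difference of -1.47 (SE 0.30, adjusted p = 0.034), and MAN2A1 had 0.55 and 1.85, with -1.30 (SE 0.26, adjusted p = 0.032). Their OMM effects did not pass alone.

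Features of the transcripts were examined after the files had been seen. Protein-coding genes were binned by the share of their first 25 codons with T in the middle position. With a share up to 16%, the median difference was -0.43 (2061 genes) and 13.3% were called lower. From 36% to 40% it was -0.63 (1629 genes, 16.9% lower), from 44% to 48% it was -0.78 (564 genes, 20.6% lower), and from 52% upward it was -0.98 (261 genes, 30.7% lower and none higher). The median OMM effect went from -0.01 in the lowest bin to 0.47 in the highest, and the median NLS effect from -0.40 to -0.58. Over all 9681 genes with such a value the Spearman correlation with the difference was -0.081, so the shift sat in the smaller top bins. The same share over the whole coding sequence had a correlation of -0.11, so the relation was not particular to the coding start. The median share at the start was 28% in higher, lower and uncalled genes alike. Bins overlapped widely, with middle quartiles from -1.74 to -0.26 in the top bin and from -1.10 to 0.32 in the lowest.

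**Figure D5:**
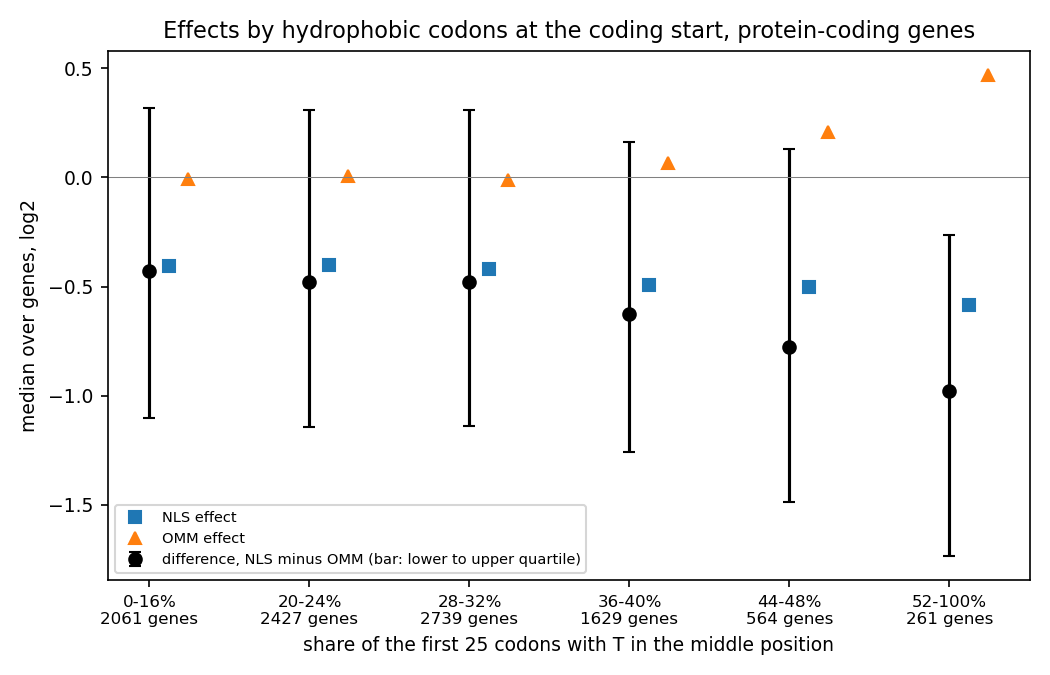
Protein-coding genes are grouped on the x axis by the share of their first 25 codons with T in the middle position, and the y axis gives the median log2 difference (black, bar from the lower to the upper quartile), NLS effect (blue) and OMM effect (orange). The difference goes from -0.43 in the lowest bin to -0.98 in the highest, with the OMM effect rising to 0.47.

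Base composition and length moved with the effects as well. Lower genes had a median transcript GC content of 44.3%, higher genes 54.2% and uncalled genes 48.7%. The Spearman correlation with GC over 9777 protein-coding genes was 0.25 for the difference, 0.075 for the NLS effect and -0.31 for the OMM effect. Transcript length had correlations of -0.057 with the difference, 0.25 with the NLS effect and 0.39 with the OMM effect. Median transcript length was 3694 bases in lower, 2932 in higher and 3281 in uncalled genes. These correlations are descriptions over genes that share 8 libraries, and the part of GC content, length and kit in the differences was not tested.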

How the data were processed

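The authors deposited read counts per gene for both compartments; the submitters' processing notes list the tools STAR, HTSeq, DESeq2, Trimmomatic, bedtools and SAMtools, with GRCh38.p13 and hg38 as builds. Tool versions and the strand setting were not given in the sources used, so overlapping genes and copies are uncertain. Count columns were assigned to the 4 groups by name, and their numbers (1 and 3 for NLS, 3 and 4 for OMM controls, 2 and 3 for labelled OMM) are not those of the sample titles. Another 4 count columns matched no sample and were not used.

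The two-sided robust quasi-likelihood F test of edgeR 4.0.16 (R 4.3.3) was run on the difference of labelling effects over the 8 libraries. TMM factors were computed within each compartment, filterByExpr used a minimum count of 10, and the prior count was 0.125. P-values were adjusted by Benjamini-Hochberg over all 23178 tested genes, with a threshold of 0.05. NLS and OMM were also fitted apart (20858 and 14438 genes). SE is the size of the log2 difference over the square root of F, and CPM uses the same factors. The fit of the difference took 1 spread per gene over both compartments, although the OMM replicates lay further apart. An SE of the difference can thus lie below that of its OMM part, as for KDELR1 (0.18 against 0.21) and more so for ZNF800 (0.32 against 0.61). Such SEs fall short of the spread that the OMM libraries showed when fitted alone, and the p-values with them can be too small. No molecular identifiers are named, so reads need not be independent molecules. The test was checked on simulated data, where it recovered the folds put in, while with the spread of the OMM libraries almost none of a small set of changed genes passed the adjusted threshold. Alternatives used limma 3.58.1 and DESeq2 1.42.0, other scalings, filters and count rules, each library left out and, added after seeing the data, a block on the NLS column numbers.

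The genes, the 31 lists and the tests were chosen with earlier results of these data known. Named genes were the 12 highest and 12 lowest called differences whose 4 labelled-control pairs of each compartment did not overlap, a set of landmark genes, and up to 2 per direction in each list. Gene types, coordinates and coding starts came from GENCODE 29 (GRCh38), which held 58396 of the 60664 identifiers and 10201 of the 10259 genes described. One named gene and one coding start are not reported here.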

Additional observations from a re-analysis of the deposited data

Results flagged for a closer look

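For the genes listed here, each named by the rule, the NLS and OMM labelling effects differed by the test of the difference itself (edgeR, adjusted p under 0.05). Beside this stands the 16.7% of all genes described with a called difference, and the genes were named for being called. Without NLS control 1 none of these calls remained. The difference, NLS minus OMM on the log2 scale, was below 0 for a first set. It came to -4.14 for CPS1, -4.02 for TMTC3, -3.99 for GPC4, -3.90 for PIGK, -3.77 for PERP, -3.70 for IARS2 and -3.67 for LIPA. It stood at -3.66 for ENPP4, -3.66 for PANX1, -3.63 for CREG1, -3.63 for IL6ST, -3.62 for SLC30A4, -3.47 for SLC39A10 and -3.45 for SPCS3. The value was -3.41 for AASS, -3.40 for CANX, -3.38 for CYP51A1, -3.37 for KDELR1, -3.31 for TMED10, -3.26 for CERS6 and -3.21 for CALU. Next came -3.18 for TRAM1, -3.08 for ITGA6, -2.83 for HSPA5, -2.73 for INA, -2.43 for LBR, -2.41 for TUBA1A and -2.32 for TOMM20. Values were -2.30 for CALR, -2.29 for PABPC1, -2.28 for EIF4G2, -2.23 for LARS2, -2.23 for NDC1, -2.22 for CDH2 and -2.22 for ZNF770. It amounted to -2.15 for ZNF800, -2.13 for HSPH1, -2.11 for SLC7A11, -2.05 for TUBB, -2.03 for TCP1, -1.95 for MFN1 and -1.93 for ACTB. It measured -1.91 for SLC25A5, -1.91 for MT-ND3, -1.90 for RPLP0, -1.89 for MRPS10, -1.85 for RPLP2, -1.83 for SLC25A30 and -1.81 for ATP5F1B. Further values were -1.81 for MRPS35, -1.78 for LDHA, -1.75 for NDUFB11, -1.73 for VDAC1, -1.72 for RPS4X, -1.69 for ALDOA and -1.69 for COX5A. It reached -1.68 for PSMD12, -1.68 for EEF1A1, -1.60 for H2BC12, -1.57 for GAPDH, -1.56 for HSPD1, -1.52 for SRRM1 and -1.47 for HNRNPUL1. It came to -1.38 for NDUFA5 and -1.22 for SNHG16.

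The difference was above 0 for 24 genes. It came to 1.04 for NDUFA11, 1.35 for MRPL27, 1.41 for PIGG, 1.44 for UGGT2, 2.13 for HOXD10, 2.39 for CLK3 and 2.56 for SNHG17. It stood at 2.57 for CLK1, 2.87 for PAM16, 3.26 for ZNF226, 3.67 for FTX, 3.71 for EPB41L4A-AS1, 3.79 for SMPD4BP and 3.85 for PHYKPL. The value was 3.93 for ENSG00000272578, 3.93 for RAB30-DT, 3.95 for ENSG00000273433, 4.02 for ANKMY1, 4.13 for CROCCP2, 4.21 for LINC00894 and 4.26 for ZNF133. Next came 4.35 for AP5Z1, 4.37 for HOXA4 and 4.54 for NEAT1. Groups of 2 libraries are too small to look for a library that stands apart within a group.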

How the results depend on the processing

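Each of the 1712 called genes kept its direction under all alternatives run, but the number of calls moved. Lower calls (1505) became 575 with library size alone and 790 with protein-coding scaling. Higher calls (207) became 319 without a filter, 816 with the 50-count rule before the fit and 1329 with DESeq2. The median over the genes described (-0.49) became -0.063, -0.20, -0.069 and -0.10 with library size alone, protein-coding scaling, the 50-count rule before the fit and DESeq2. At NLS, library size alone gave 3782 rising and 2966 falling genes. At OMM (20 and 8), library size alone gave 48 and 16, no filter 314 and 140, and DESeq2 833 and 651. Beyond fewer libraries or genes in a fit, the cause was not tested.

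Leaving out 1 library gave 0 to 2054 lower and 0 to 681 higher calls, a median of -0.56 to -0.44, 4259 to 5470 falling and 1427 to 2108 rising genes at NLS, and 72 to 147 falling and 122 to 233 rising genes at OMM. The lone library left was assumed to vary like the other groups. MT-TL1, not called (0.56), ran from -0.19 (without OMM control 3) to 2.14 (without labelled OMM library 3), and was -0.16 without labelled OMM library 2. TMM over all 8 libraries, voom and count rules of 10 or 200 left both counts within 1.5 times.

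A replicate block on the NLS columns, numbered 1 and 3 in both groups, was added after seeing the data and gave 738 lower and 52 higher calls (790 of the 1712). The samples share only a number, with a correlation of -0.10 over genes between the replicate differences of the 2 NLS groups. The crossed replicate block gave 849 lower and 60 higher. The OMM groups share only the number 3 and had no block. Replicate spread was larger at OMM than at NLS, with a median coefficient of variation of 0.357 against 0.0989.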
